A study of Mus musculus with 54 samples.

Results

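Cerebella of mice at postnatal day 5 (P5) that lacked Rnaseh2b and Atm were set against cerebella of the same age that lacked Rnaseh2b and p53. The comparison took in 8 of the series' 54 libraries, chosen by genotype and age from the P5 columns. There were 4 Rnaseh2b/Atm libraries, labelled RnaseH2B,Atm Nes-cre, and 4 Rnaseh2b/p53 libraries, labelled RnaseH2B,p53 Nes-cre. Loss of Rnaseh2b and the Nes-cre driver were common to both genotypes, so the comparison asked what differed between losing Atm and losing p53 in cerebella that already lacked the RNase H2 B subunit. The other P5 groups, with 3 libraries each, were Atm Nes-cre, p53 Nes-cre, RnaseH2B Nes-cre and control, and they entered only where stated. Nes-cre expresses Cre recombinase from the Nestin promoter, which is active in neural progenitors. Neurons and the glia derived from these progenitors lose the targeted genes, while microglia, vessels, meninges and blood keep them. Each library was total RNA from whole cerebellum, and the labels did not say how many animals went into one, so p-values measure the spread between these samples.

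RNase H2 removes ribonucleotides that polymerases leave in DNA and digests RNA in RNA:DNA hybrids, and cells without it accumulate DNA breaks. ATM is a kinase activated by DNA double-strand breaks, and p53 is one of its substrates. p53 is a transcription factor that, once stabilised after DNA damage, switches on genes of cell cycle arrest, apoptosis and metabolism. In the first postnatal week the mouse cerebellum is dominated by granule cell progenitors, which divide in the external granular layer under Sonic hedgehog and then leave the cycle as granule neurons. Purkinje cells are already past division at that age and extend their dendrites.

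The engineered genes were read first. Trp53, which encodes p53, had 3.50, 3.44, 3.44 and 2.98 log2 CPM in Rnaseh2b/Atm cerebella, against 2.23, 2.16, 1.76 and 1.94 log2 CPM in Rnaseh2b/p53 cerebella. The groups did not overlap, and the difference was 1.32 ± 0.14 (SE), adjusted p = 0.000328 on the log2 scale. Residual Trp53 reads remained in all 4 Rnaseh2b/p53 libraries. Atm, the damage kinase, had 5.70, 5.52, 5.65 and 5.28 log2 CPM in Rnaseh2b/Atm cerebella, against 6.05, 6.10, 5.92 and 5.84 log2 CPM in Rnaseh2b/p53 cerebella. It was lower in all 4 Rnaseh2b/Atm libraries, by a small margin (-0.44 ± 0.10 (SE), adjusted p = 0.005). Values are per gene, so reads from any part of Atm outside a deletion count toward it, and the level is a weak check of the label. Rnaseh2b had 2.01, 1.82, 1.94 and 1.88 log2 CPM in Rnaseh2b/Atm cerebella, against 2.17, 2.30, 2.21 and 2.11 log2 CPM in Rnaseh2b/p53 cerebella, which placed both groups below the control range of 3.75 to 4.61 log2 CPM. It was slightly lower in Rnaseh2b/Atm (-0.28 ± 0.08 (SE), adjusted p = 0.0182). Rnaseh2a, the catalytic subunit, was lower as well (-0.47 ± 0.08 (SE), adjusted p = 0.00205), and Rnaseh2c (-0.03 ± 0.12 (SE), adjusted p = 0.851) and Rnaseh1 (-0.13 ± 0.06 (SE), adjusted p = 0.0969) did not pass the test. The calls for Atm and Rnaseh2b were lost when all 20 P5 libraries entered the fit (adjusted p = 0.0814 and 0.268 by limma), and the Rnaseh2b call was also lost without Rnaseh2b/Atm library 2 (adjusted p = 0.0518), without Rnaseh2b/p53 library 2 (adjusted p = 0.0538) or without Rnaseh2b/p53 library 3 (adjusted p = 0.051).

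Reads counted in genes came to between 80.1 and 86.6 M in Rnaseh2b/Atm libraries and to 91.4, 48.2, 711 and 69.5 M in Rnaseh2b/p53 libraries 1 to 4. The share of reads that fell in no annotated feature was 18.7 to 23.5% in Rnaseh2b/Atm and 23.8 to 28.2% in Rnaseh2b/p53, so the groups did not overlap on this measure of library make-up. Rnaseh2b/p53 library 4 also had 3.075% of reads unaligned, against 0.755 to 0.981% in Rnaseh2b/Atm and 0.988 to 1.067% in the other Rnaseh2b/p53 libraries. Xist and Y-linked genes put males and females in both groups, with males as 2 of 4 Rnaseh2b/Atm and 3 of 4 Rnaseh2b/p53 libraries. Marker genes of the medulla and pons averaged 3.01, 2.94, -2.27 and 0.42 log2 CPM in Rnaseh2b/Atm libraries 1 to 4, against -0.75, -1.84, 1.70 and 2.39 in Rnaseh2b/p53, so these markers differed from library to library in both groups. The share of reads in no feature, and the choroid plexus markers described further down, moved with genotype. Each entered as a covariate in alternative fits given below. Their part in the results cannot be told apart from genotype in 8 libraries.

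Nearly as many genes rose as fell. Of 14973 genes tested with limma across the 8 libraries, 3502 (23.4%) were higher in Rnaseh2b/Atm and 3642 (24.3%) were lower, 7144 in all (47.7%), at an adjusted p below 0.05. Most of these differences were small. The median difference over all genes tested was 0.0154 log2, the median of those that rose was 0.378 and the median of those that fell was -0.317. Differences of at least 1 log2 were rare, with 176 genes higher (1.18%) and 208 lower (1.39%). Separation was common: of the 14973 genes, 3092 were higher and 3496 lower in Rnaseh2b/Atm with no overlap between the groups. Because so many genes passed the test, a list of genes is read below against these shares and by the size of its median. The first principal component held 53% of the variance and separated the genotypes. The second held 22.4% and separated Rnaseh2b/Atm libraries 1 and 2 from 3 and 4.

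**Figure D1:**
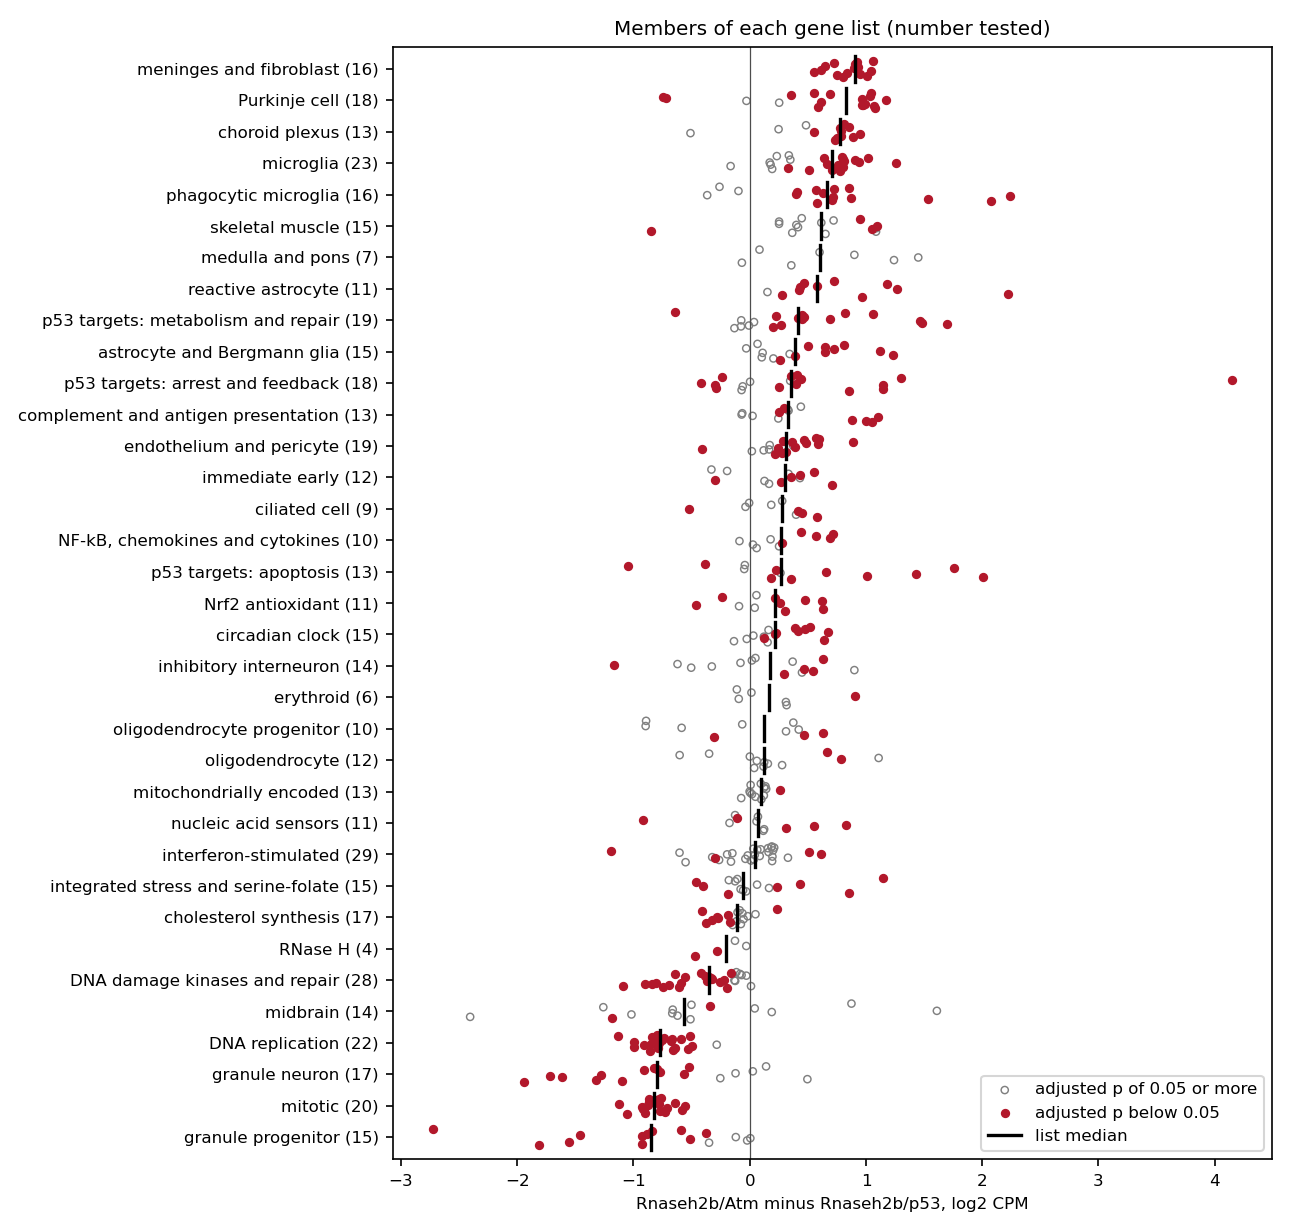
Each point is 1 tested member of a gene list, placed by its difference between Rnaseh2b/Atm and Rnaseh2b/p53 on the log2 CPM scale, and the black bars are list medians (sex-linked genes are left out). Meninges, Purkinje cell, choroid plexus and microglia lists lie to the right, with medians of 0.902, 0.825, 0.777 and 0.708, and granule progenitor and mitotic lists lie to the left at -0.845 and -0.823.

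The targets of p53 were higher in Rnaseh2b/Atm. Of 50 tested targets in 3 lists (arrest and feedback, apoptosis, metabolism and repair), 31 rose, 7 fell and 12 did not pass, with a median difference of 0.351 against 0.0154 over all genes. The 3 lists together had 12 members at 1 log2 or more on the higher side and 1 on the lower. Of those on the higher side, Trp53cor1, Mgmt and Tnfrsf10b were below 0 log2 CPM in every Rnaseh2b/p53 library. They met the threshold for testing only through their Rnaseh2b/Atm libraries, so their place in this count is not independent of the difference. Ccng1, a cyclin G gene that p53 induces in many tissues, had 7.26, 7.0, 7.14 and 6.90 log2 CPM in Rnaseh2b/Atm cerebella, against 5.91, 5.87, 5.88 and 6.07 log2 CPM in Rnaseh2b/p53 cerebella. Every Rnaseh2b/Atm library was above every Rnaseh2b/p53 library (1.15 ± 0.08 (SE), adjusted p = 8.88e-05), as for 3092 of the 14973 genes tested. Cdkn1a, which encodes the cell cycle inhibitor p21, had 4.85, 4.77, 4.88 and 4.77 log2 CPM in Rnaseh2b/Atm cerebella, against 3.89, 3.94, 3.97 and 4.05 log2 CPM in Rnaseh2b/p53 cerebella. Again the groups were apart (0.86 ± 0.05 (SE), adjusted p = 3.89e-05).

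To show the DNA upstream of targets on both sides of the comparison, the 250 bases before the annotated start are given for Cdkn1a, Ccng1, Bax and Ppm1d, from RefSeq on GRCm38.p6. Capitals mark matches to the p53 decamer, the unit that occurs as a pair in p53 response elements and that reads as the same pattern on both strands.
Cdkn1a, chr17:29090729-29090978, plus strand: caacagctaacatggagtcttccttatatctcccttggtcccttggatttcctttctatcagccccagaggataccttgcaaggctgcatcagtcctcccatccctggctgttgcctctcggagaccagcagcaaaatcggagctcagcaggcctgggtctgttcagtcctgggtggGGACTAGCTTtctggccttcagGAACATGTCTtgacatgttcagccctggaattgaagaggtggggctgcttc
Ccng1, chr11:40755287-40755536, minus strand: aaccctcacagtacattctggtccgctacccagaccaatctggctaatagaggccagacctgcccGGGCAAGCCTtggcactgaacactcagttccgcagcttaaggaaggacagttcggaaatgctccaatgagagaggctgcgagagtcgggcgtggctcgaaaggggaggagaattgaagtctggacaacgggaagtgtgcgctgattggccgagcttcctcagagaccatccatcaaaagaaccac
Bax, chr7:45466899-45467148, minus strand: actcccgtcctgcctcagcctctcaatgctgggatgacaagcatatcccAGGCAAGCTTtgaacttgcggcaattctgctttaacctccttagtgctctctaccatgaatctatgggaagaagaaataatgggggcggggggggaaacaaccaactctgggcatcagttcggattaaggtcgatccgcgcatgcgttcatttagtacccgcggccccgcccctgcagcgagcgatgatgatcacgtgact
Ppm1d, chr11:85311004-85311253, plus strand: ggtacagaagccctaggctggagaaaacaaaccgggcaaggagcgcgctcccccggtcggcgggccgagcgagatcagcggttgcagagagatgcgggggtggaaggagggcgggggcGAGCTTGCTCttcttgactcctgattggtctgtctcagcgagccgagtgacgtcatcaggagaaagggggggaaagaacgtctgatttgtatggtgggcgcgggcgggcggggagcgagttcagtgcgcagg

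In the window of Cdkn1a the decamers began 73 and 51 bases before the start, in Ccng1 185, in Bax 201 and in Ppm1d 132. Such a window was at hand for 41 of the 50 tested targets, and 9 of them (22%) held at least 1 decamer, against 7.18% of 27025 promoters of the same length. By direction, 6 of 24 targets that rose, 2 of 7 that fell and 1 of 10 that did not pass held one. Ccng1, Cdkn1a and Bax rose and Ppm1d fell, so a match in this window went with either direction.

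Among the arrest and feedback targets, 10 of 18 rose and 4 fell. Sesn2, a stress-induced inhibitor of mTORC1 signalling, had 4.69, 4.70, 4.68 and 4.45 log2 CPM in Rnaseh2b/Atm cerebella, against 3.49, 3.37, 3.50 and 3.59 log2 CPM in Rnaseh2b/p53 cerebella, a difference of 1.14 ± 0.07 (SE), adjusted p = 4.52e-05. Phlda3, a repressor of Akt signalling, differed by 1.3 ± 0.10 (SE), adjusted p = 0.000152. The long non-coding RNA Trp53cor1 (lincRNA-p21, listed under its older name Gm16197) had 1.17, 1.03, 0.92 and 0.28 log2 CPM in Rnaseh2b/Atm cerebella, against -2.42, -3.15, -2.85 and -4.79 log2 CPM in Rnaseh2b/p53 cerebella. It was close to absent in Rnaseh2b/p53 and the fitted difference was 4.15 ± 0.48 (SE), adjusted p = 0.000412. Smaller rises were seen for Trp53inp1 (0.44 ± 0.10 (SE), adjusted p = 0.00628) and the kinase Plk2 (0.25 ± 0.07 (SE), adjusted p = 0.0183). The genes of this list that fell included negative regulators of p53: the phosphatase Ppm1d (-0.42 ± 0.07 (SE), adjusted p = 0.00167) and Mdm4 (-0.24 ± 0.05 (SE), adjusted p = 0.00649), along with Sesn1 (-0.30 ± 0.07 (SE), adjusted p = 0.00793). Mdm2, the ubiquitin ligase for p53, is named here after its values were seen. It had 5.34, 5.27, 5.31 and 5.08 log2 CPM in Rnaseh2b/Atm cerebella, against 5.34, 5.35, 5.31 and 5.28 log2 CPM in Rnaseh2b/p53 cerebella, with overlapping groups (-0.07 ± 0.06 (SE), adjusted p = 0.355).

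Of 13 apoptosis targets, 8 rose and 2 fell. Pmaip1, which encodes the BH3-only protein Noxa, had 2.97, 2.52, 2.95 and 2.16 log2 CPM in Rnaseh2b/Atm cerebella, against 0.82, 0.58, 0.73 and 0.45 log2 CPM in Rnaseh2b/p53 cerebella (2.0 ± 0.18 (SE), adjusted p = 0.000241). Eda2r, a TNF receptor family member, had 5.2, 4.87, 4.97 and 4.46 log2 CPM in Rnaseh2b/Atm cerebella, against 3.46, 3.10, 3.0 and 2.90 log2 CPM in Rnaseh2b/p53 cerebella (1.76 ± 0.16 (SE), adjusted p = 0.000241). The exonuclease gene Aen differed by 1.01 ± 0.08 (SE), adjusted p = 0.000152, and the death receptor gene Tnfrsf10b by 1.43 ± 0.21 (SE), adjusted p = 0.001. Bax, the pore-forming executioner, rose less (0.35 ± 0.08 (SE), adjusted p = 0.00765), as did Perp (0.65 ± 0.11 (SE), adjusted p = 0.00138) and Ei24 (0.23 ± 0.04 (SE), adjusted p = 0.00141). Apaf1, the apoptosome scaffold, was among the most expressed members and did not pass (-0.05 ± 0.06 (SE), adjusted p = 0.565). Trp73, which encodes the p53 relative p73, fell (-1.05 ± 0.17 (SE), adjusted p = 0.00135).

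Of 19 metabolism and repair targets, 13 rose and 1 fell. The epoxide hydrolase Ephx1 had 4.03, 4.30, 4.2 and 3.79 log2 CPM in Rnaseh2b/Atm cerebella, against 2.44, 2.40, 2.12 and 2.55 log2 CPM in Rnaseh2b/p53 cerebella (1.70 ± 0.13 (SE), adjusted p = 0.000113). Dcxr, a carbonyl reductase, had 2.79, 2.82, 3.04 and 2.76 log2 CPM in Rnaseh2b/Atm cerebella, against 1.43, 1.46, 1.34 and 1.25 log2 CPM in Rnaseh2b/p53 cerebella (1.48 ± 0.09 (SE), adjusted p = 3.91e-05). In both genes the lowest Rnaseh2b/Atm library was more than 1 log2 above the highest Rnaseh2b/p53 library. Mgmt, which repairs alkylated guanine, differed by 1.46 ± 0.14 (SE), adjusted p = 0.000269, the KIT ligand gene Kitl by 0.82 ± 0.10 (SE), adjusted p = 0.000473, the phospholipid transfer protein gene Pltp by 0.69 ± 0.07 (SE), adjusted p = 0.000269 and Abhd4 by 0.45 ± 0.06 (SE), adjusted p = 0.000603. Ada, adenosine deaminase, fell (-0.64 ± 0.14 (SE), adjusted p = 0.00462), and Ddit4 did not pass (0.04 ± 0.08 (SE), adjusted p = 0.733). With any 1 of the 8 libraries left out, 26 to 30 of the 50 targets rose and 5 to 7 fell. With the choroid plexus list as a covariate 14 rose and 5 fell, and with the share of reads in no feature as a covariate, chosen after the data had been seen, 15 rose and 0 fell.

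**Figure D2:**
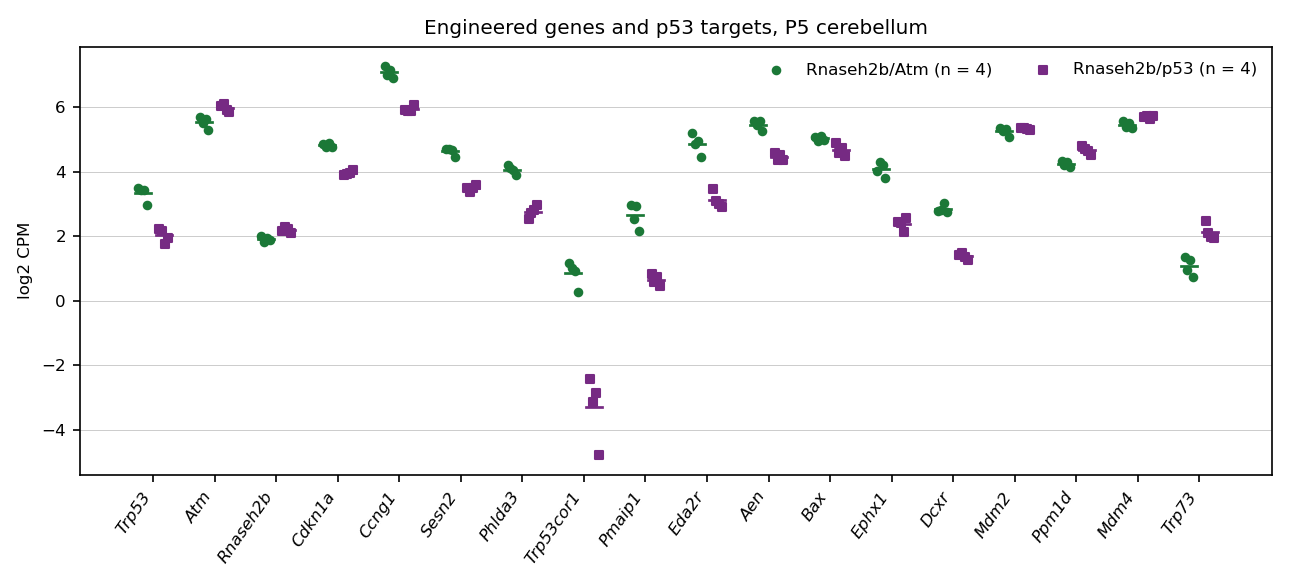
Log2 CPM of the engineered genes and of p53 targets in each of the 4 Rnaseh2b/Atm libraries (circles, left of each pair) and the 4 Rnaseh2b/p53 libraries (squares), with bars at the means. From Cdkn1a to Dcxr the 2 groups are apart, Trp53cor1 is the widest gap at 4.15 log2, and Mdm2 overlaps.

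For scale, the mean log2 CPM of all p53 targets was 4.15, 4.09, 4.15 and 3.95 in Rnaseh2b/Atm libraries, against 3.64, 3.61, 3.59 and 3.53 in Rnaseh2b/p53 libraries. In the other P5 groups it averaged 3.54 ± 0.213 in Atm, 3.57 ± 0.0584 in p53, 3.97 ± 0.0463 in Rnaseh2b and 3.61 ± 0.0893 in control (SD, n = 3 each). Rnaseh2b/Atm libraries 1 to 3 lay above the Rnaseh2b range of 3.93 to 4.02 and library 4 lay within it, while all 4 Rnaseh2b/p53 libraries lay within the control range of 3.50 to 3.66. These levels across groups were not tested.

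Genes of dividing cells and of the granule cell lineage were lower in Rnaseh2b/Atm. All 20 mitotic genes fell (median -0.823 log2), as did 21 of 22 DNA replication genes (median -0.769), 11 of 15 granule progenitor genes (median -0.845) and 12 of 17 granule neuron genes (median -0.80), while 0 genes of these 4 lists rose. Atoh1, the transcription factor that specifies granule progenitors, had 2.48, 1.58, 1.94 and 1.46 log2 CPM in Rnaseh2b/Atm cerebella, against 3.78, 3.98, 3.57 and 3.39 log2 CPM in Rnaseh2b/p53 cerebella (-1.81 ± 0.22 (SE), adjusted p = 0.000471). Gli2, a transcriptional effector of Sonic hedgehog, had 2.58, 1.92, 2.38 and 1.63 log2 CPM in Rnaseh2b/Atm cerebella, against 3.81, 3.9, 3.57 and 3.45 log2 CPM in Rnaseh2b/p53 cerebella (-1.55 ± 0.20 (SE), adjusted p = 0.000594). Both genes were lower in every Rnaseh2b/Atm library. Mycn, a proliferation factor induced by Sonic hedgehog in these cells, differed by -0.92 ± 0.10 (SE), adjusted p = 0.000392, and Barhl1, a homeobox gene of the lineage, by -1.46 ± 0.19 (SE), adjusted p = 0.000659. The 4 granule progenitor genes that did not pass were the hedgehog pathway genes Gli1, Ptch1 and Hhip and the cyclin gene Ccnd1.

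Factors of granule cell differentiation fell as well. Neurod1, which drives exit from the cycle and maturation, had 6.0, 5.47, 5.79 and 4.86 log2 CPM in Rnaseh2b/Atm cerebella, against 7.76, 7.56, 7.30 and 7.26 log2 CPM in Rnaseh2b/p53 cerebella (-1.94 ± 0.22 (SE), adjusted p = 0.000411). Nhlh1, a bHLH factor of newly postmitotic neurons, had 1.48, 0.58, 1.25 and -0.09 log2 CPM in Rnaseh2b/Atm cerebella, against 3.86, 3.62, 3.36 and 3.26 log2 CPM in Rnaseh2b/p53 cerebella (-2.72 ± 0.31 (SE), adjusted p = 0.000399). Its relative Nhlh2 differed by -1.72 ± 0.18 (SE), adjusted p = 0.000308, the vesicle priming gene Cadps2 by -1.61 ± 0.16 (SE), adjusted p = 0.000286, the axonal adhesion gene Cntn2 by -1.28 ± 0.12 (SE), adjusted p = 0.000241 and Reln, secreted by granule cells, by -0.91 ± 0.12 (SE), adjusted p = 0.000664. Rnaseh2b/Atm library 4 was the lowest of its group for Neurod1, Nhlh1, Nhlh2 and Cadps2.

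Among cell cycle genes the differences were even in size. Aurkb, a mitotic kinase, had 3.83, 3.58, 3.71 and 3.37 log2 CPM in Rnaseh2b/Atm cerebella, against 4.67, 4.72, 4.54 and 4.28 log2 CPM in Rnaseh2b/p53 cerebella (-0.93 ± 0.12 (SE), adjusted p = 0.000594). Bub1, of the spindle checkpoint, differed by -0.91 ± 0.12 (SE), adjusted p = 0.000599, the spindle factor Tpx2 by -0.86 ± 0.11 (SE), adjusted p = 0.000629 and the kinetochore motor Cenpe by -0.87 ± 0.10 (SE), adjusted p = 0.00045. The S-phase genes Tk1 (-1.14 ± 0.12 (SE), adjusted p = 0.000309), Cdt1 (-0.99 ± 0.10 (SE), adjusted p = 0.000269) and Prim1 (-0.75 ± 0.06 (SE), adjusted p = 0.00014) fell as well. Of 28 DNA damage kinase and repair genes, 21 fell and 0 rose (median -0.349), including Brca1 (-1.09 ± 0.12 (SE), adjusted p = 0.000379), Brca2 (-0.69 ± 0.07 (SE), adjusted p = 0.000315), Top2b (-0.39 ± 0.05 (SE), adjusted p = 0.000476) and Tdp2, which removes trapped topoisomerase 2 from DNA (-0.55 ± 0.08 (SE), adjusted p = 0.000786).

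These genes also varied among libraries of other genotypes. The mean of the mitotic list was 4.30 to 4.83 log2 CPM in Rnaseh2b/Atm and 5.16 to 5.57 in Rnaseh2b/p53, and it spanned 4.09 to 5.70 in control and 2.68 to 5.22 in Atm libraries, with Atm library 1 at the low end. The granule progenitor list was at 4.04 to 4.61 in Rnaseh2b/Atm, 5.02 to 5.40 in Rnaseh2b/p53 and 4.13 to 5.41 in control. The DNA damage kinase and repair list was at 4.39 to 4.65, 4.84 to 5.0 and 4.35 to 5.05 in the same order. In a fit of all 20 P5 libraries, which counts that wider spread as error, 0 of 20 mitotic, 4 of 22 replication, 4 of 15 granule progenitor and 5 of 17 granule neuron genes passed. With the share of reads in no feature as a covariate the counts that fell were 0, 4, 1 and 3. With any 1 of the 8 libraries left out 20 of 20 mitotic genes still passed. For the cell cycle, repair and granule lineage lists, a changed share of cells and a changed level per cell cannot be told apart in whole tissue.

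**Figure D3:**
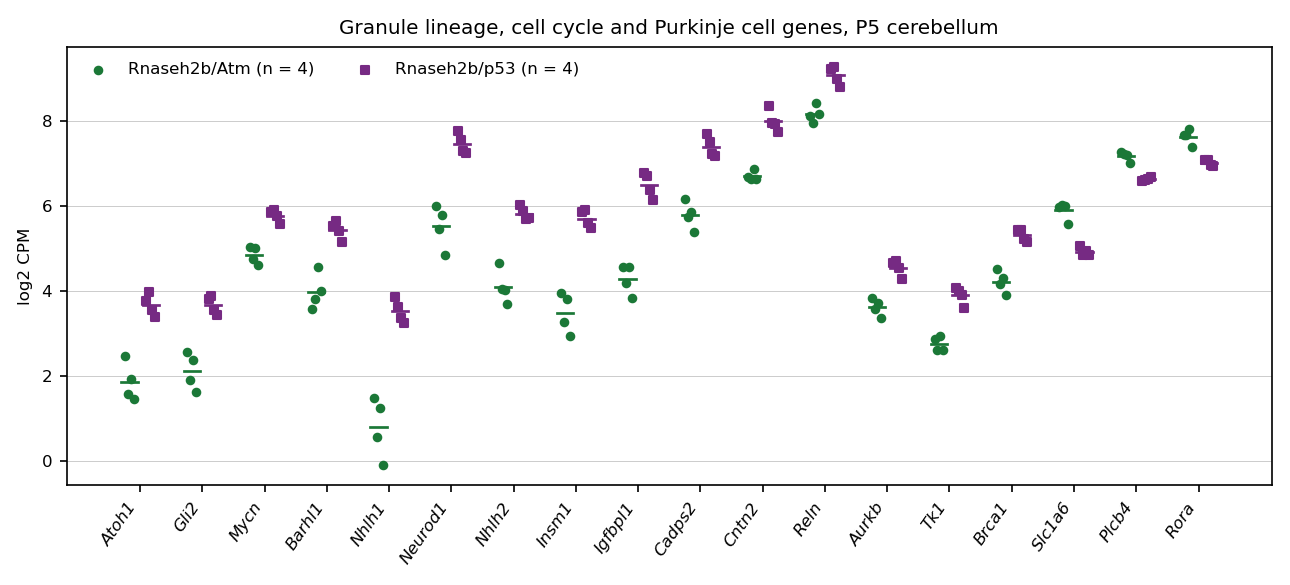
Log2 CPM of granule lineage, cell cycle and Purkinje cell genes in the 4 Rnaseh2b/Atm libraries (circles, left of each pair) and the 4 Rnaseh2b/p53 libraries (squares), with bars at the means. From Atoh1 to Brca1 the Rnaseh2b/Atm points lie below the Rnaseh2b/p53 points, and for Slc1a6, Plcb4 and Rora they lie above.

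Purkinje cell genes moved the other way. Of 18 tested, 14 rose and 2 fell, with a median difference of 0.825 log2. Slc1a6, the glutamate transporter of Purkinje spines, had 5.98, 6.04, 6.01 and 5.59 log2 CPM in Rnaseh2b/Atm cerebella, against 5.07, 4.86, 4.94 and 4.85 log2 CPM in Rnaseh2b/p53 cerebella (0.98 ± 0.10 (SE), adjusted p = 0.000306). Plcb4, the phospholipase that acts behind metabotropic glutamate receptors, differed by 0.55 ± 0.06 (SE), adjusted p = 0.000311, the nuclear receptor gene Rora by 0.61 ± 0.08 (SE), adjusted p = 0.000744 and Dner, a Notch ligand, by 0.36 ± 0.04 (SE), adjusted p = 0.000389. Calb1 and Pcp2, 2 classical Purkinje markers named here after their values were seen, differed by 1.07 ± 0.16 (SE), adjusted p = 0.00101 and 1.08 ± 0.21 (SE), adjusted p = 0.00343. The 2 genes that fell were the LIM homeobox genes Lhx1 and Lhx5, which act early in Purkinje development, and Lhx5 had 3.27, 3.0, 3.31 and 3.25 log2 CPM in Rnaseh2b/Atm cerebella, against 4.03, 3.96, 3.98 and 3.83 log2 CPM in Rnaseh2b/p53 cerebella (-0.74 ± 0.08 (SE), adjusted p = 0.000318). The list mean was 6.0, 5.96, 6.03 and 5.59 in Rnaseh2b/Atm libraries, against 5.43, 5.35, 5.25 and 5.13 in Rnaseh2b/p53 libraries and 4.57 to 5.48 in control. In whole tissue a larger share of Purkinje cells, more RNA per cell and a smaller share of granule cells cannot be told apart. Inhibitory interneuron genes were less uniform, with 4 of 14 higher and 1 lower (median 0.171). They included the GABA synthesis gene Gad1 (0.29 ± 0.08 (SE), adjusted p = 0.0134). In the fit of all 20 libraries 6 Purkinje genes rose and 2 fell, and with the choroid plexus list as a covariate 3 rose and 2 fell.

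Microglia and astrocyte genes were higher in Rnaseh2b/Atm, and microglia are a lineage in which Nes-cre does not act. Of 23 microglia genes 16 rose and 0 fell (median 0.708), and of 16 genes of phagocytic microglia 13 rose and 0 fell (median 0.669). Itgax, a marker of activated microglia in early postnatal white matter, had 1.5, 1.36, 1.34 and 1.12 log2 CPM in Rnaseh2b/Atm cerebella, against -0.49, -0.83, -0.82 and -0.84 log2 CPM in Rnaseh2b/p53 cerebella (2.08 ± 0.14 (SE), adjusted p = 8.88e-05). Spp1, secreted osteopontin, had 5.72, 5.64, 5.34 and 5.55 log2 CPM in Rnaseh2b/Atm cerebella, against 4.53, 3.95, 3.76 and 3.86 log2 CPM in Rnaseh2b/p53 cerebella (1.53 ± 0.16 (SE), adjusted p = 0.000304). Gpnmb, a lysosome-associated glycoprotein, differed by 2.24 ± 0.34 (SE), adjusted p = 0.00107. The lysosomal genes Ctsd (0.72 ± 0.05 (SE), adjusted p = 8.88e-05) and Ctsb (0.57 ± 0.04 (SE), adjusted p = 0.000112) and the growth factor gene Igf1 (0.87 ± 0.09 (SE), adjusted p = 0.000276) rose by less. Of the homeostatic microglia genes, the receptor gene Csf1r differed by 0.71 ± 0.07 (SE), adjusted p = 0.000269, Laptm5 by 1.01 ± 0.11 (SE), adjusted p = 0.000315 and Itgam by 0.90 ± 0.10 (SE), adjusted p = 0.000358. The summed level of the microglia list was 276 to 322 CPM in Rnaseh2b/Atm, 184 to 194 CPM in Rnaseh2b/p53 and 191 to 226 CPM in control.

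Complement genes rose with them. C1qa, C1qb and C1qc, whose products form the recognition molecule of the classical pathway and come from microglia in the brain, differed by 1.05 ± 0.11 (SE), adjusted p = 0.000315, by 1.0 ± 0.10 (SE), adjusted p = 0.0003 and by 0.88 ± 0.09 (SE), adjusted p = 0.000283. C4b differed by 1.106 ± 0.14 (SE), adjusted p = 0.000564. In the list of complement and antigen presentation genes 6 of 13 rose and 0 fell (median 0.327). Of 11 reactive astrocyte genes 10 rose (median 0.582). Serpina3n, a protease inhibitor of reactive astrocytes, had 3.98, 4.23, 3.59 and 3.83 log2 CPM in Rnaseh2b/Atm cerebella, against 1.72, 1.34, 1.6 and 2.07 log2 CPM in Rnaseh2b/p53 cerebella (2.22 ± 0.17 (SE), adjusted p = 0.00013). Serpina3n spanned 1.72 to 4.02 log2 CPM within control libraries. The small heat shock gene Hspb1 differed by 1.27 ± 0.16 (SE), adjusted p = 0.000548 and Steap4 by 1.18 ± 0.18 (SE), adjusted p = 0.0011. Of 15 astrocyte and Bergmann glia genes 9 rose and 0 fell (median 0.388), among them Gdf10, a Bergmann glia marker (1.23 ± 0.12 (SE), adjusted p = 0.000241) and the connexin gene Gja1 (0.72 ± 0.10 (SE), adjusted p = 0.000644). With the share of reads in no feature as a covariate 6 of 23 microglia, 5 of 16 phagocytic microglia and 1 of 11 reactive astrocyte genes rose.

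Interferon-stimulated genes, which RNase H2 loss is known to raise through sensing of DNA in the cytosol, showed no common direction. Of 29 tested, 2 rose, 2 fell and 25 did not pass, with a median of 0.0438 against 0.0154 over all genes. The list mean was 1.92, 2.04, 2.10 and 1.71 log2 CPM in Rnaseh2b/Atm, against 1.65, 2.22, 2.04 and 1.92 in Rnaseh2b/p53, and it was 1.04 to 1.61 in control. The highly expressed members Ifit2 (-0.16 ± 0.08 (SE), adjusted p = 0.127) and Eif2ak2, the RNA-activated kinase PKR (0.21 ± 0.10 (SE), adjusted p = 0.0947), did not pass. Stat2 (-0.30 ± 0.08 (SE), adjusted p = 0.0143) and Xaf1 (-1.20 ± 0.33 (SE), adjusted p = 0.0147) fell, while Lgals3bp (0.51 ± 0.15 (SE), adjusted p = 0.0199) and Bst2 (0.61 ± 0.22 (SE), adjusted p = 0.0427) rose, and all of these but Stat2 had overlapping groups. Among 11 nucleic acid sensor genes 3 rose and 2 fell. The endosomal receptors Tlr7 (0.83 ± 0.14 (SE), adjusted p = 0.00191) and Tlr3 (0.56 ± 0.14 (SE), adjusted p = 0.00985) and the adaptor Mavs (0.31 ± 0.07 (SE), adjusted p = 0.00499) were higher, and Aim2, a DNA sensor of the inflammasome, was lower (-0.91 ± 0.19 (SE), adjusted p = 0.00443). Aim2 spanned 0.19 to 2.60 log2 CPM within control libraries.

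Meningeal and vascular genes were higher in Rnaseh2b/Atm. All 16 meninges and fibroblast genes rose, with a median of 0.902 log2. The collagen gene Col3a1 had 8.33, 8.65, 8.77 and 8.32 log2 CPM in Rnaseh2b/Atm cerebella, against 7.75, 7.61, 7.69 and 7.70 log2 CPM in Rnaseh2b/p53 cerebella (0.83 ± 0.10 (SE), adjusted p = 0.000472), and Col1a2 differed by 0.95 ± 0.11 (SE), adjusted p = 0.000471. The proteoglycan genes Lum (1.01 ± 0.08 (SE), adjusted p = 0.00014) and Dcn (0.80 ± 0.08 (SE), adjusted p = 0.000286) rose too. Their summed level was 1100 to 1510 CPM in Rnaseh2b/Atm, 697 to 758 CPM in Rnaseh2b/p53 and 781 to 946 CPM in control. Of 19 endothelium and pericyte genes 13 rose and 1 fell (median 0.311), with the pericyte channel gene Kcnj8 at 0.89 ± 0.08 (SE), adjusted p = 0.00019, the endothelial gene Vwf at 0.59 ± 0.06 (SE), adjusted p = 0.000269 and the thyroid hormone transporter gene Slco1c1, which fell, at -0.41 ± 0.07 (SE), adjusted p = 0.00154.

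Choroid plexus is not cerebellar tissue but lies next to it in the fourth ventricle. Of 13 of its markers 10 rose and 0 fell (median 0.777), including Kl (0.89 ± 0.15 (SE), adjusted p = 0.00176), Kcnj13 (0.95 ± 0.17 (SE), adjusted p = 0.00221) and Kcne2 (0.81 ± 0.15 (SE), adjusted p = 0.00252). The summed level was 1370 to 2270 CPM in Rnaseh2b/Atm, 968 to 1480 CPM in Rnaseh2b/p53 and 115 to 1390 CPM in control, so the groups overlapped on this sum. They did not overlap on the list mean, at 3.64 to 4.17 log2 CPM in Rnaseh2b/Atm and 3.19 to 3.55 in Rnaseh2b/p53. A fit with that mean as a covariate therefore cannot separate it from genotype. When the choroid plexus list mean entered as a covariate, 976 genes rose and 1988 fell over the whole table, and the list's own median was 0.00253. Under that covariate 20 of 20 mitotic genes fell, 4 of 16 meninges genes rose and 6 of 23 microglia genes rose.

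**Figure D4:**
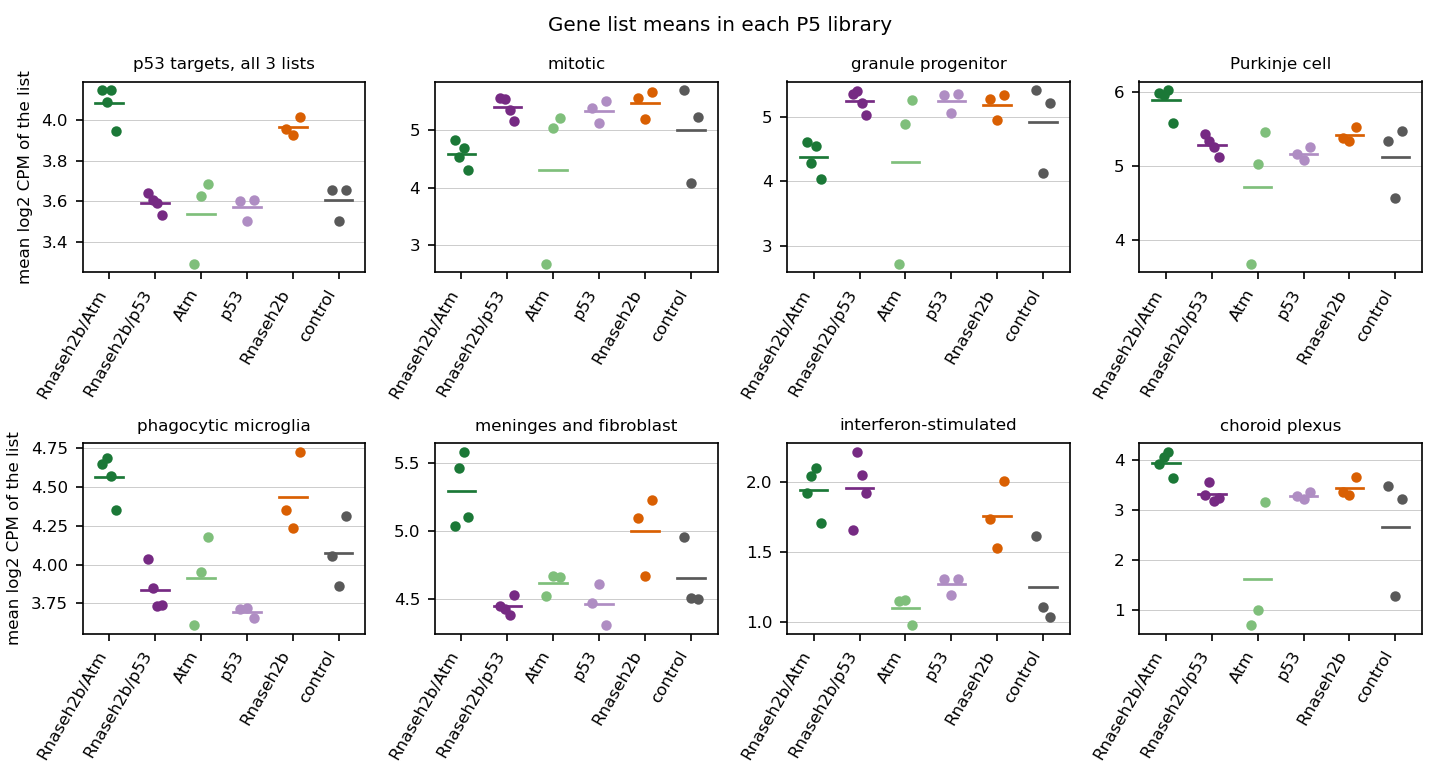
Mean log2 CPM of 8 gene lists in each P5 library, with bars at group means (n = 4 for Rnaseh2b/Atm and Rnaseh2b/p53, n = 3 for the others). The vertical scale differs between panels. For p53 targets Rnaseh2b/Atm and Rnaseh2b stand above the other groups, for interferon-stimulated genes both compound mutants lie at similar levels, and 1 Atm library and 1 control library are low for mitotic and granule progenitor genes.

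Other lists had smaller medians, few members that passed or members that went both ways. Oligodendrocyte genes had 2 of 12 higher (median 0.122), with Cldn11, of the myelin tight junction, at 0.78 ± 0.28 (SE), adjusted p = 0.0419 and overlapping groups. Oligodendrocyte progenitor genes had 2 of 10 higher, Olig1 (0.63 ± 0.14 (SE), adjusted p = 0.00637) and Cspg4 (0.47 ± 0.06 (SE), adjusted p = 0.000548), and 1 lower, Pdgfra (-0.31 ± 0.07 (SE), adjusted p = 0.00788), with a median of 0.124. Midbrain genes had 0 of 14 higher and 2 lower, Barhl2 (-1.19 ± 0.31 (SE), adjusted p = 0.0119) and Pax3 (-0.34 ± 0.10 (SE), adjusted p = 0.0236), with a median of -0.565. Of medulla and pons genes 0 of 7 passed, with a median of 0.601. The groups overlapped on the means of both lists. Skeletal muscle genes, which mark no cerebellar cell type, summed to 56.4 to 113 CPM in Rnaseh2b/Atm, against 38.4 to 68.7 CPM in Rnaseh2b/p53, with 3 of 15 higher, including Neb (0.95 ± 0.21 (SE), adjusted p = 0.00588), and 1 lower, Myh8 (-0.85 ± 0.27 (SE), adjusted p = 0.0281). The median of the muscle list was 0.616 log2. Its sum was 75.8 to 102 CPM in Rnaseh2b libraries. That sum was 34.3 to 37.3 CPM in control, 30.6 to 33.3 in p53 and 27.0 to 42.8 in Atm, and the source of the muscle transcripts was not tested. Immediate early genes had 5 of 12 higher, with Fos (0.70 ± 0.13 (SE), adjusted p = 0.00235) and Jun (0.27 ± 0.05 (SE), adjusted p = 0.00213), and 1 lower, Jund (-0.30 ± 0.06 (SE), adjusted p = 0.0025). Of 11 Nrf2 antioxidant genes 6 rose and 2 fell, with the heme oxygenase gene Hmox1 (0.63 ± 0.07 (SE), adjusted p = 0.000394) and the cystine transporter gene Slc7a11 (0.62 ± 0.11 (SE), adjusted p = 0.00186) higher and Txnrd1 lower (-0.46 ± 0.06 (SE), adjusted p = 0.000728). Cholesterol synthesis genes had 7 of 17 lower and 1 higher (median -0.112), among them Insig1 (-0.41 ± 0.05 (SE), adjusted p = 0.000514), which is under SREBP control. In the stress and serine list the serine synthesis genes split, with Psat1 lower (-0.40 ± 0.05 (SE), adjusted p = 0.000512) and Psph higher (0.43 ± 0.07 (SE), adjusted p = 0.00131). Of 15 circadian clock genes 9 rose (median 0.215), with Per3 at 0.64 ± 0.07 (SE), adjusted p = 0.000394, and of 10 NF-kB, chemokine and cytokine genes 5 rose, with the adhesion genes Vcam1 at 0.57 ± 0.07 (SE), adjusted p = 0.000532 and Icam1 at 0.69 ± 0.14 (SE), adjusted p = 0.00376. Of 13 mitochondrially encoded genes 1 rose, mt-Co1 (0.26 ± 0.09 (SE), adjusted p = 0.0339), and of 6 erythroid genes 1 rose, Hba-a2 (0.91 ± 0.29 (SE), adjusted p = 0.0281), with overlapping groups.

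The 12 largest falls and 12 largest rises were taken among genes that passed, had a mean of at least 1 log2 CPM in the higher group and no overlap between groups, leaving out gene models, pseudogenes and mitochondrial tRNAs. Trp53cor1, listed as a gene model and with a mean of 0.85 log2 CPM in Rnaseh2b/Atm, is outside that rule, although its fitted difference of 4.15 was larger than any rise named here. On the lower side were transcription factors of newly born neurons: Insm2 (-3.25 ± 0.23 (SE), adjusted p = 0.000111), Neurod4 (-2.91 ± 0.27 (SE), adjusted p = 0.000241), Nhlh1 and Insm1, a zinc finger factor with 3.96, 3.28, 3.83 and 2.94 log2 CPM in Rnaseh2b/Atm cerebella, against 5.86, 5.90, 5.6 and 5.48 log2 CPM in Rnaseh2b/p53 cerebella (-2.21 ± 0.21 (SE), adjusted p = 0.000249). Igfbpl1, a relative of the insulin-like growth factor binding proteins, had 4.56, 4.19, 4.57 and 3.84 log2 CPM in Rnaseh2b/Atm cerebella, against 6.78, 6.72, 6.38 and 6.14 log2 CPM in Rnaseh2b/p53 cerebella (-2.22 ± 0.19 (SE), adjusted p = 0.000187). Vipr1 (-2.37 ± 0.21 (SE), adjusted p = 0.000207), Klhl35 (-2.38 ± 0.23 (SE), adjusted p = 0.000243), Ucma (-2.24 ± 0.25 (SE), adjusted p = 0.000384) and Xlr3b (-2.24 ± 0.33 (SE), adjusted p = 0.00101) were among the 12 largest falls. Insm2, Neurod4, Klhl35 and Ucma were below 0 log2 CPM in every Rnaseh2b/Atm library. They met the threshold for testing only through their Rnaseh2b/p53 libraries, so their place among the falls is not independent of the difference. Xlr3b spanned -1.21 to 2.91 log2 CPM within control libraries. Rec8, a cohesin subunit of meiosis, had -0.05, 0.74, 0.11 and -0.13 log2 CPM in Rnaseh2b/Atm cerebella, against 3.50, 3.60, 3.15 and 3.39 log2 CPM in Rnaseh2b/p53 cerebella (-3.24 ± 0.19 (SE), adjusted p = 3.46e-05), and Mndal, a member of the interferon-inducible PYHIN family, differed by -2.96 ± 0.25 (SE), adjusted p = 0.000187. Mndal also varied widely within other genotypes, from -1.17 to 3.81 log2 CPM in control and from -2.10 to 2.49 in Atm libraries. Lars2, the mitochondrial leucyl-tRNA synthetase gene, ranged from 2.19 to 2.28 log2 CPM in Rnaseh2b/Atm and from 2.50 to 8.03 in Rnaseh2b/p53, with library 4 at the top (-2.61 ± 0.96 (SE), adjusted p = 0.048), and its call was lost in most alternative fits, with adjusted p between 0.0507 and 0.958 in those.

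On the higher side, Pqlc3, which encodes a PQ-loop membrane protein, had 1.52, 1.3, 1.41 and 0.86 log2 CPM in Rnaseh2b/Atm cerebella, against -0.87, -1.41, -1.12 and -1.70 log2 CPM in Rnaseh2b/p53 cerebella (2.55 ± 0.22 (SE), adjusted p = 0.0002). Gpnmb, Serpina3n, Itgax, Pmaip1, Eda2r and Ephx1 were also among the 12 largest rises. Myo7a, a myosin of sensory hair cells, was even across Rnaseh2b/Atm libraries and uneven in the other group, with 5.17, 5.15, 5.13 and 5.14 log2 CPM in Rnaseh2b/Atm cerebella, against 4.12, 2.20, 4.27 and 2.33 log2 CPM in Rnaseh2b/p53 cerebella (1.92 ± 0.45 (SE), adjusted p = 0.00752). Myo7a spanned 1.88 to 5.04 log2 CPM within p53 libraries. The iodide transporter gene Slc5a5 (1.75 ± 0.15 (SE), adjusted p = 0.00019), the adhesion gene Mpzl2 (1.66 ± 0.25 (SE), adjusted p = 0.00106), the urea cycle gene Ass1 (1.59 ± 0.15 (SE), adjusted p = 0.000241) and the lipoxygenase gene Alox8 (1.72 ± 0.18 (SE), adjusted p = 0.000309) completed the 12 rises under that rule. Control libraries spanned 0.91 to 2.11 log2 CPM for Slc5a5 and -0.07 to 2.06 for Alox8. Pqlc3, Itgax and Alox8 were below 0 log2 CPM in every Rnaseh2b/p53 library and met the threshold for testing only through Rnaseh2b/Atm.

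Genes next to the engineered loci were counted apart. Among the 15 protein-coding neighbours on each side in RefSeq order, 12 of 20 tested near Atm passed (60%, 8 higher), 12 of 23 near Trp53 (52.2%, 6 higher) and 8 of 17 near Rnaseh2b (47.1%, 2 higher), against 47.7% of all genes. Npat, which shares a promoter region with Atm, differed by -0.29 ± 0.06 (SE), adjusted p = 0.00373, Cul5 by -0.17 ± 0.04 (SE), adjusted p = 0.00695 and Acat1 by 0.15 ± 0.05 (SE), adjusted p = 0.0446. The largest neighbour differences were Alox8 near Trp53, Acsbg1 near Atm (0.72 ± 0.12 (SE), adjusted p = 0.00181) and Spata13 near Rnaseh2b (-0.62 ± 0.09 (SE), adjusted p = 0.000901). Near Trp53, Naa38 fell (-0.56 ± 0.05 (SE), adjusted p = 0.000238) and Kcnab3 rose (0.56 ± 0.11 (SE), adjusted p = 0.0027).

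Whether the Atm and p53 genotypes differ in the same way when Rnaseh2b is intact was asked with the 3 Atm and 3 p53 libraries. Without Rnaseh2b loss, 31 genes were higher in Atm than in p53 (0.207%) and 47 lower (0.314%). These counts came from 3 libraries per group in a fit of 14 libraries. They are not like for like with the 7144 genes called between the compound mutants in a fit of 8. The difference of differences, which is the compound mutant difference minus the Atm minus p53 difference, passed for 224 genes on the higher side (1.5%) and 32 on the lower (0.214%). Of these, 233 had also passed between the compound mutants in the same direction. Atm library 1 stood apart from the other 2 Atm libraries, with a granule progenitor list mean of 2.73 log2 CPM against 4.89 and 5.26 in Atm libraries 2 and 3. Without it the difference of differences passed for 577 genes on the higher side and 627 on the lower.

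Among p53 targets, 7 of 50 passed on the higher side and 0 on the lower, and 16 and 1 without Atm library 1. Ccng1 differed by 0.14 ± 0.10 (SE) between Atm and p53, and the compound mutants differed by 1.01 ± 0.13 (SE) log2 more than that (adjusted p = 0.00504). The same excess was 1.44 for Dcxr (adjusted p = 0.00268), 1.31 for Ephx1 (adjusted p = 0.00605) and 0.87 for Aen (adjusted p = 0.00703). Cdkn1a had an excess of 0.67 that did not pass (adjusted p = 0.123). The strongest excesses by adjusted p also included the lipase inhibitor gene Angptl4 (0.90), Itpripl2 (1.09), Kcnj8 (0.98), the actin-binding gene Tagln2 (1.17) and the carnitine palmitoyltransferase gene Cpt1a (0.57). Trhde, a peptidase of thyrotropin-releasing hormone, went the other way (-0.65).

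Some of the genes with large differences between the compound mutants also differed between Atm and p53 with Rnaseh2b intact. Serpina3n was higher in Atm than in p53 (2.57 ± 0.23 (SE), adjusted p = 0.000411), as were Alox8 (2.06 ± 0.28 (SE), adjusted p = 0.0065), Itgax (1.23 ± 0.16 (SE), adjusted p = 0.00471) and Slc5a5 (1.15 ± 0.23 (SE), adjusted p = 0.0477). Rec8 (-4.22 ± 0.61 (SE), adjusted p = 0.00899) and Xaf1 (-1.88 ± 0.33 (SE), adjusted p = 0.0268) were lower in Atm. For none of these 6 genes did the difference of differences pass in limma's test, with adjusted p of 0.739 for Serpina3n, 0.81 for Alox8, 0.0709 for Itgax, 0.424 for Slc5a5, 0.709 for Rec8 and 0.58 for Xaf1. Of 23 microglia genes, 4 were higher in Atm than in p53 and 0 lower, and 1 and 0 without Atm library 1.

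For granule lineage and mitotic genes this test depended on 1 library. With all 14 libraries 0 of 20 mitotic, 0 of 15 granule progenitor and 0 of 17 granule neuron genes passed, and the Atm minus p53 medians were -1.05, -0.825 and -0.668. Without Atm library 1 those medians were -0.22, -0.17 and 0.083, and the compound mutants then differed by more on the lower side for 7 mitotic, 5 granule progenitor and 5 granule neuron genes. The microglia list had 1 of 23 genes with an excess, and 4 without Atm library 1, and the Atm minus p53 median of that list was 0.317 and 0.316.

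**Figure D5:**
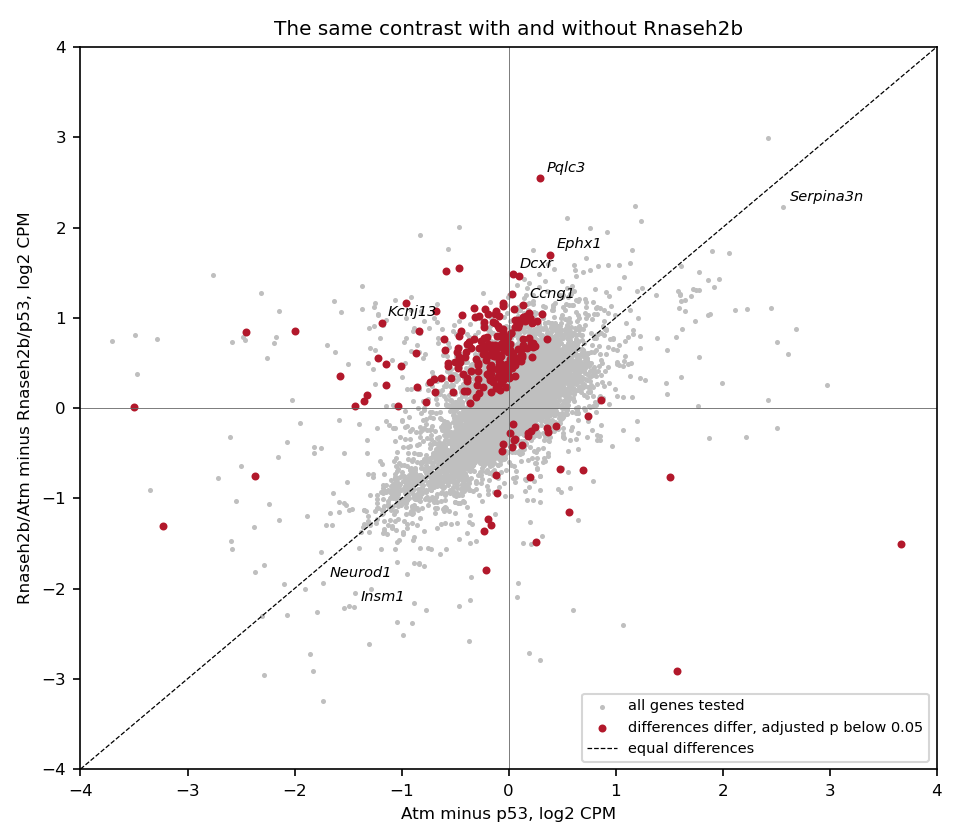
Each point is 1 gene, with the Atm minus p53 difference on the horizontal axis (3 libraries each) and the Rnaseh2b/Atm minus Rnaseh2b/p53 difference on the vertical axis (4 libraries each), both on the log2 CPM scale, and 15 genes lie outside the axes. Red points, where the differences differ, are mostly above the dashed line of equal differences (224 above, 32 below), and the p53 targets Ccng1, Dcxr and Ephx1 are among them.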

How the data were processed

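RNA was extracted with TRIzol and libraries were made with a stranded total RNA kit, per the labels' protocols. The deposited values are log2 CPM per gene, made by the authors, and a matching deposited table of FPKM was used as an alternative. The submitters' processing notes name Trim Galore, STAR, BWA, HTSeq, limma and mm9, and their roles and versions are not given in the sources used here. Whole reads were recovered from the log2 CPM steps for 100% of values checked (tolerance 0.01 reads), which gave the depths.

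Of 19232 genes, 14973 with at least 0 log2 CPM in at least 4 of the 8 libraries were tested with limma 3.58.1 (R 4.3.3, variance trend, Benjamini-Hochberg adjustment over all genes tested), and adjusted p-values are from that fit. A gene could meet that threshold through the 4 libraries of a single group. Among others, Trp53cor1, Mgmt, Tnfrsf10b, Itgax, Pqlc3, Alox8 and Steap4 did so through Rnaseh2b/Atm. Insm2, Neurod4, Klhl35 and Ucma did so through Rnaseh2b/p53. Differences of differences came from a fit of 14 libraries. Levels per library are not per length, so genes are compared between groups only. Calculations beyond limma used Python 3.11.15. The fit was also run on simulated reads in which few genes changed and no library property but depth varied. Such reads cannot show how the fit behaves where many genes differ and library make-up moves with genotype. Named genes were the engineered genes, the 12 largest rises and falls under the rule given with them, up to 5 passing members per list by adjusted p (10 for p53 and interferon lists), the 4 members with the highest levels in each p53 list and in the interferon list, neighbours of the engineered loci and the top differences of differences. Members and lists were chosen with earlier results of these data known. Alternatives are given in the closing section. A few genes that the naming rule picks are not reported here.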

Additional observations from a re-analysis of the deposited data

Results flagged for a closer look

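In groups of 4 libraries, 22 of 384 sets of values had 1 library far from the other 3 by Dixon's test at the 95% level, and chance alone flags about 1 in 20. Rnaseh2b/Atm library 4 was the low one for Trp53 (2.98 log2 CPM), Sesn2 (4.45), Sesn1 (4.94), Ddit4 (5.28), Mndal (-0.18), Slc1a6 (5.59), Kcne2 (3.14), Pcp2 (5.02) and the mean of the Purkinje cell list (5.59), and it was the high one for Ada (0.627). Rnaseh2b/p53 library 4 stood apart for Ccng1 (6.07), Pltp (4.86), Jund (5.73), Vcam1 (5.15), the astrocyte and Bergmann glia list (6.71) and the share of reads unaligned (3.075%). Rnaseh2b/p53 library 1 stood apart for Plk2 (5.8), Itgax (-0.488) and Slc5a5 (0.534), library 2 for Tlr7 (0.208) and the sex-linked list (-2.78), and library 3 for its 711 M reads in genes.

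The difference between Rnaseh2b/Atm and Rnaseh2b/p53 was itself unlike the difference between Atm and p53 for the genes that follow, by limma's test of the difference of differences over 14 libraries at an adjusted p below 0.05, with the excess on the log2 scale in parentheses. Among p53 targets these were Ccng1 (1.01), Aen (0.875), Ephx1 (1.31), Dcxr (1.44), Mgmt (1.37), Pltp (0.838) and Abhd4 (0.457). Glial and immune genes were Mavs (0.489), C1qa (0.867), C1qb (0.797), Ctsd (0.492), Ctsb (0.351), Igf1 (0.921) and Hspb1 (1.24). Purkinje cell genes were Slc1a6 (0.893), Plcb4 (0.486) and Lhx5 (-0.629). Genes of choroid plexus, meninges and vessels were Kcnj13 (2.13), Col3a1 (0.807), Dcn (0.873), Lum (1.32) and Kcnj8 (0.978). The remaining genes were Pqlc3 (2.25), Hmox1 (0.623), Insig1 (-0.541), Psph (0.456), Angptl4 (0.902), Itpripl2 (1.09), Tagln2 (1.17), Trhde (-0.646) and Cpt1a (0.567). All of these tests include Atm library 1, which stood apart from the other Atm libraries. For choroid plexus genes Atm library 2 was low as well. The mean of that list was 0.694, 1.002 and 3.16 log2 CPM in Atm libraries 1 to 3, against 3.22 to 3.36 in p53. Its Atm minus p53 median was -1.5, and -1.43 without Atm library 1, so the Kcnj13 excess includes that subtracted term.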

How the results depend on the processing

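The count of 7144 genes between the compound mutants became 4294 with all 20 P5 libraries in the fit (2122 higher, 2172 lower), 2964 with the choroid plexus list as a covariate (976 higher, 1988 lower) and 555 with the share of reads in no feature as a covariate (292 higher, 263 lower), the last chosen after seeing the data. Leaving out 1 of the 8 libraries gave 5632 to 7476. The remaining alternatives for this count stayed within 1.5 times of it. The difference of differences, 256 genes, became 158 with all 20 libraries and 135 with the replicate block, and ranged from 65 (without p53 library 2) to 1204 (without Atm library 1) with 1 library left out. The Atm against p53 count, 78 genes, became 40 with all 20 libraries and 38 with the replicate block, and ranged from 25 (without p53 library 3) to 4205 (without Atm library 3). The cause of these shifts was not tested.

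Lgals3bp reversed to -0.0076 (adjusted p = 0.986) and Bst2 to -0.2176 (adjusted p = 0.671) with the choroid plexus covariate, and no other named gene that passed changed sign in any alternative. Of 145 named genes that passed, 34 were lost with all 20 libraries, 58 with the choroid plexus covariate and 75 with the no-feature covariate. Replicate numbers did not pair the samples: deviations of same-numbered libraries correlated at 0.197, -0.532, -0.283 and 0.0774, and the fit with the replicate block called 7018 genes between the compound mutants. Depth was high in every library.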
